A study of Mus musculus with 8 samples.

Results

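Fibroblasts of the meninges and of the perivascular spaces were followed in the hypothalamus (HT) through 35 genes, which were listed by name and read from every probe of the arrays that carried one of these names. Of 8 male C3H/HeN offspring, 4 (MS) had been separated daily from their dam between postnatal day (PND) 2 and PND 14, while the dam was exposed to unpredictable stress, and 4 (control) had not. All mice were weaned, caged by group, tested as adults in operant chambers and deprived of food before the brain was taken, and the HT was dissected from the whole brain. Each array received RNA of a single mouse, labeled with Cy3 from 200 ng. The 35 genes had 43 of the 55681 probes on the array other than controls, and 41 of the 43 entered the test.

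Collagen is made in the brain mainly by fibroblasts, which lie in the pia, the arachnoid and the dura that wrap the brain and along the larger vessels that enter it, and by the cells of the vessel wall. These fibroblasts secrete fibril-forming collagens together with small proteoglycans that bind the fibrils, and they carry transporters that move amino acids, anions and other solutes between the cerebrospinal fluid and the blood. They also release retinoic acid and growth factors that guide the development of the cortex below. The HT lies at the base of the brain, and its lower face is covered by meninges.

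Genes known from the hypothalamus and from fibroblasts were both detected on these arrays. All 9 of 9 genes known from hypothalamic neurons, such as *Pomc*, *Agrp*, *Avp*, *Oxt* and *Hcrt*, were well above background on all 8 arrays. Of 24 further markers of meningeal and perivascular fibroblasts that are not among the 35 genes, 23 were well above background on all 8 arrays. Over the whole array, 32807 of 55681 probes reached this level on all 8 arrays. The 9 and 24 genes were counted by their brightest probe, and their detection alone does not show which cells made the RNA. Each of the 35 genes also reached this level on all 8 arrays with its brightest probe, which stands for the gene below, and 0 of the spots were saturated. The 2 probes left out of the test, a second one of *Fbln5* and one of *Ggt5*, were well above background on 0 arrays. As the HT is a bulk tissue, the kind and number of the cells that express these genes and the RNA per cell cannot be told apart in these signals.

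A value is the log2 of the processed signal of a probe minus that of the 75th percentile of its array, so that a difference of 1 is a doubling of the signal. Levels were compared between mice and not between probes. Mice are named by group and by their number in the labels, and values are listed in the order control 6.2, 8.2, 8.4 and 8.5, then MS 5.3, 7.1, 7.2 and 7.6. The 8 arrays lay on 1 slide in 2 rows, and row 1 held control 8.2, control 8.4, MS 5.3 and MS 7.2. Litters and cages of the mice are not named in the labels, and p-values therefore measure only the spread between these 8 animals. Control 8.2, 8.4 and 8.5 share the first part of their number, as do MS 7.1, 7.2 and 7.6, and its meaning is not given. The 75th percentile of the signal ranged from 499 in MS 7.6 to 902 in MS 7.2, and 34086 to 39613 probes were well above background. Precision is limited by the 4 arrays per group.

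None of the 35 genes passed the test between MS and control mice. By limma, 0 of the 41 probes passed an adjusted p under 0.05, as did 0% of the 37322 probes tested, and the adjusted p of the 35 genes lay between 0.989 and 0.995. At an unadjusted p under 0.05 there were 3 of the 35 genes (8.57%), against 2.61% of the 16659 genes tested. These were *Fbln5* and *Ggt5*, with lower values in MS mice (1.69% of all genes were lower by this criterion), and *Lrrc15*, with higher values (0.918% of all genes). In 31 of the 35 genes (88.6%) the log2 fold change of MS over control was below 0, against 46.3% of all genes, and the exceptions were *Col4a1*, *Col4a2*, *Nupr1* and *Lrrc15*. The median log2 fold change was -0.10 over the 35 genes and 0.01 over all genes tested. Since most of the 35 genes moved together from mouse to mouse, they are not 35 separate measurements of a difference between the groups. The direction rested on single mice: without control 8.5 only 12 genes were below 0 with a median of 0.04, without MS 7.2 they were 15 with a median of 0.02, while without MS 7.6 the median was -0.40 and without control 8.2 it was -0.33.

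The precision for these genes was low. The half-width of the 95% confidence interval of the log2 fold change had a median of 0.78 over the 35 genes and 0.19 over all genes tested. For 20 of the 35 genes the interval lay within a 2-fold change in either direction, and for 10 it lay within a 1.5-fold change. In 10 genes, such as *Slc13a4* and *Ogn*, the half-width was over 1, so that a 2-fold change of these was not detectable with 4 mice per group.

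**Figure D1:**
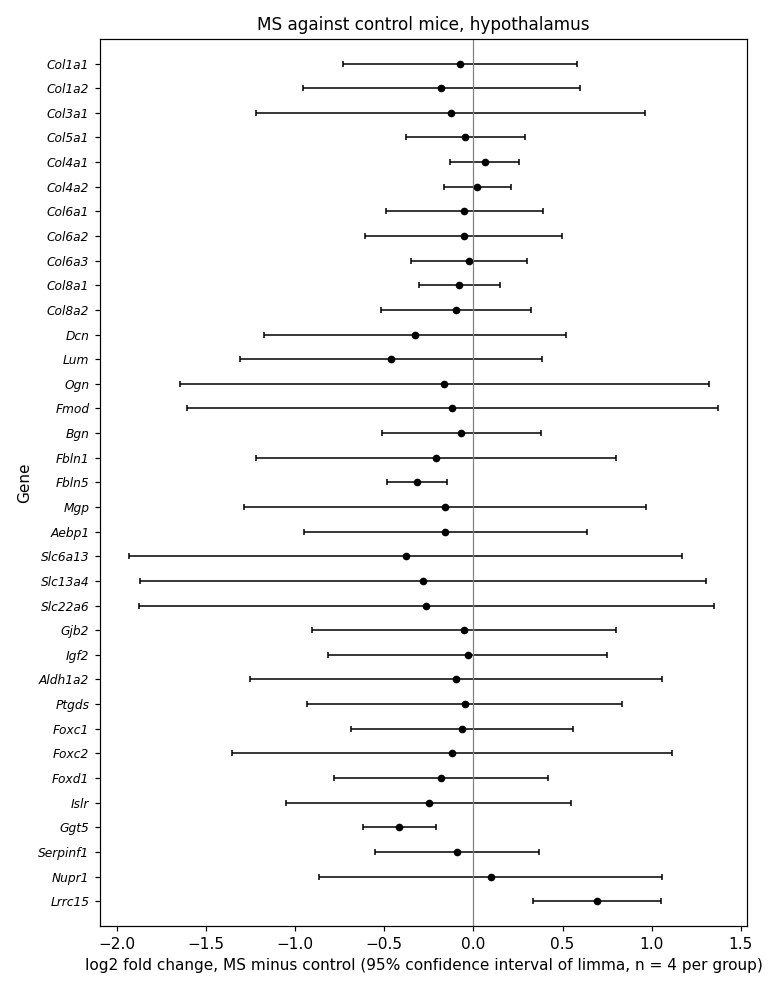
The log2 fold change of MS over control mice is plotted for each of the 35 genes (points) with the 95% confidence interval of limma (bars, n = 4 per group). The intervals of *Fbln5*, *Ggt5* and *Lrrc15* lie on one side of 0, and the widest intervals are those of the solute carriers, *Ogn* and *Fmod*.

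The spread between mice was wide in both groups. The mean of the 35 genes, each taken relative to its own mean over the 8 mice, was 0.03, -0.60, 0.26 and 0.55 in the control mice and -0.24, -0.16, -0.48 and 0.64 in the MS mice. Both groups thus held mice at the top and at the bottom, and the groups overlapped over almost their whole range. This mean level was 0.06 ± 0.49 (SD, n = 4) in control and -0.06 ± 0.49 (SD, n = 4) in MS mice, a difference of -0.12 on the log2 scale, while control 8.2 and MS 7.6 lay 2.37-fold apart. Within row 1 of the slide the groups differed by -0.19, and within row 2 by -0.05.

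Per gene, the range over the 8 mice had a median of 1.42, against 0.34 over all genes tested, and the SD within the groups had a median of 0.56 against 0.11. Of the 35 genes, 26 were among the tenth of all genes with the highest SD within the groups. The range of a gene was more than 3 times its difference between the groups in 32 genes. The lowest value was that of control 8.2 in 21 genes and of MS 7.2 in 5, and the highest value was that of MS 7.6 in 22 genes and of control 8.5 in 9.

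The level of these genes also moved with the row of the slide and with the brightness of the array. The mean level was -0.27 in row 1 and 0.27 in row 2, and 32 of the 35 genes were higher on average in row 2, by a median of 0.55 against 0.00 for all genes. It ranged from -0.60 to 0.26 within row 1 and from -0.16 to 0.64 within row 2, so that the rows overlapped. Over the 8 mice, the mean level and the log2 of the 75th percentile of the array had a Pearson's r of -0.755 (Spearman's rho -0.952), or -0.744 without the 2 mice farthest from the median. Both measures hold the 75th percentile, which was subtracted to form the level. The r was -0.740 with quantile normalization, -0.746 in the authors' table and -0.266 without scaling, where the level still holds the brightness of its array. With the number of probes above background r was -0.876 (rho -0.929), or -0.628 without the 2 farthest mice. The 4 mice of a row are too few for these correlations within rows. Before the arrays were scaled to each other, the mean level still was lowest in control 8.2, but MS 7.6, the dimmest array, came to 0.02 and control 8.5 was highest at 0.52. The part of the row and of the brightness in the result was not tested.

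**Figure D2:**
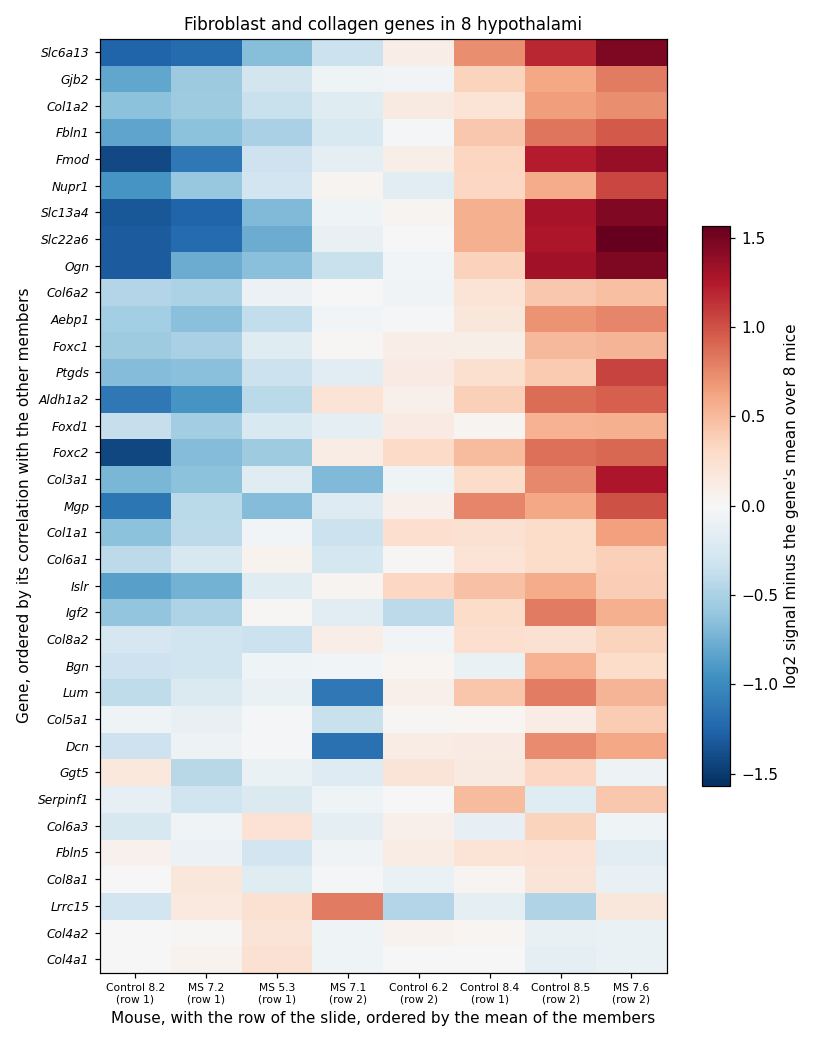
Each cell shows the log2 signal of a gene (rows) in a mouse (columns, with the row of the slide) minus the mean of that gene over the 8 mice, in red where higher and in blue where lower. Mice are ordered by the mean of the 35 genes, from control 8.2 to MS 7.6, and genes by their correlation with the other members, so that the genes at the bottom, *Col8a1*, *Lrrc15*, *Col4a2* and *Col4a1*, do not follow the gradient.

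The 35 genes varied together to a large extent. For the co-variation, the mean of each group was subtracted first, and r is Pearson's correlation over the 8 mice, whose values share an array, its scaling and a dissection. Where r is given for the mean level of another gene list, the group means were kept. Among the 595 pairs of the 35 genes the median r was 0.716, with 479 pairs (80.5%) above 0 and 274 (46.1%) above 0.8. The first principal component held 91.2% of the variance of the 35 genes, against 33.1% for all genes. Without scaling between the arrays, a setting chosen after seeing the data, the median r was 0.444 and the component held 80.1%. With the row of the slide subtracted as well, the median r was 0.747. Against the mean of the other members, 22 genes had an r above 0.9, against 1.66% of the 16620 other genes set against the mean of the 35. The median r was 0.936 for the 35 genes and -0.028 for the other genes. At the other end, 6 genes had an r under 0.5, which were *Col6a3* (0.386), *Fbln5* (0.291), *Col8a1* (-0.040), *Lrrc15* (-0.161), *Col4a2* (-0.496) and *Col4a1* (-0.583).

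Of the groups by role, the solute carriers and the gap junction protein of the meninges had the widest median range over the mice (2.75 on the log2 scale). *Slc13a4*, a sulfate transporter of the meninges and the choroid plexus, had values of 1.40, 0.03, 1.92 and 2.65 in control mice and 0.67, 1.29, 0.10 and 2.82 in MS mice. *Slc22a6*, which carries organic anions, had values of -0.38, -1.68, 0.18 and 0.90 in control mice and -1.15, -0.49, -1.58 and 1.19 in MS mice. *Slc6a13*, a GABA and taurine transporter, had values of 0.82, -0.55, 1.44 and 1.89 in control mice and 0.03, 0.37, -0.50 and 2.17 in MS mice. In all 3 genes control 8.2 and MS 7.2 were lowest, control 8.5 and MS 7.6 were highest, and the groups overlapped. The highest value was 6.88 times the lowest for *Slc13a4*, 7.33 times for *Slc22a6* and 6.60 times for *Slc6a13*. The log2 fold change of MS over control was -0.28 (95% confidence interval -1.87 to 1.30) for *Slc13a4* and -0.38 (-1.93 to 1.17) for *Slc6a13*. That of *Slc6a13* was -0.93 without MS 7.6 and -0.04 without MS 7.2. *Gjb2*, which encodes connexin 26, had a smaller range, from 0.00 in control 8.2 to 1.63 in MS 7.6, in nearly the same order. No pair of the 35 genes had a higher r than *Slc13a4* and *Slc22a6* (0.998, rho 1), although they lie on chromosomes 6 and 19, and *Slc6a13* and *Gjb2* had nearly the same value (0.998).

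Since these genes of different chromosomes moved together, their promoters were searched for 3 short motifs. The first was CCAAT, the core of the box bound by the factor NF-Y, the next was GGGCGG, the GC box bound by factors such as Sp1, and the last was TATAAA, the TATA box near the start of transcription. A motif was counted on both strands, also where it overlapped another. The windows run from 250 bases before to 50 after a listed start of the gene (RefSeq, GRCm38.p6) and were found for 29 of the 35 genes. The first listed window of a gene was used, which need not be that of its outermost start. CCAAT was found in 11 of the 29 (37.9%), against 37.9% of 27025 promoters of this length, GGGCGG in 17 (58.6%) against 35.9%, and TATAAA in 2 (6.9%) against 14.2%. A match is a run of letters and not a binding site. The promoters of the pair with the highest r are shown as an example. Both held CCAAT 3 times, counted over both strands, with 1 further GGGCGG in *Slc13a4*. How many of all promoters hold CCAAT 3 times was not counted, and a link of the motifs to the r was not tested. Motifs are in capitals, 5′ to 3′ on the strand of the gene, and a pair of CCAAT motifs on opposite strands overlaps in *Slc22a6*.
Slc13a4 (chr6:35308077-35308376, minus strand): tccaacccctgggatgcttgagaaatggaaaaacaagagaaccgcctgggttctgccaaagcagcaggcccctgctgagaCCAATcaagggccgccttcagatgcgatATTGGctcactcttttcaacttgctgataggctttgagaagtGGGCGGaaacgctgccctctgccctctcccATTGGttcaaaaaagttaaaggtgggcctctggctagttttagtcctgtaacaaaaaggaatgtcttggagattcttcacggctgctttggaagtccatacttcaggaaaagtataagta
Slc22a6 (chr19:8617746-8618045, plus strand): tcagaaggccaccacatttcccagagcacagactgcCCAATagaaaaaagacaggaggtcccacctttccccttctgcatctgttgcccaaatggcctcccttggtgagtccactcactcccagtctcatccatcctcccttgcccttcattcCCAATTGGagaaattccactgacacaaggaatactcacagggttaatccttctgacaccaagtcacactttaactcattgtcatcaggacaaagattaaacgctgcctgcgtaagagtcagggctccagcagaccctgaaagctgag

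The small leucine-rich proteoglycans, which bind collagen fibrils and set their thickness, fell into a pair of patterns. *Ogn* (osteoglycin) had values of -0.07, -1.34, 0.33 and 1.29 in control mice and -0.69, -0.37, -0.81 and 1.43 in MS mice. *Fmod* (fibromodulin) had values of -1.25, -2.75, -1.0 and -0.10 in control mice and -1.66, -1.49, -2.46 and 0.03 in MS mice. Both were lowest in control 8.2 and highest in MS 7.6, with ranges of 6.80-fold and 6.85-fold, and correlated with the mean of the other members (r 0.987 and 0.991). *Dcn* (decorin) had values of 3.23, 2.80, 3.25 and 3.86 in control mice and 3.09, 1.96, 3.04 and 3.73 in MS mice. *Lum* (lumican), its neighbor on chromosome 10, had values of -0.98, -1.46, -0.63 and -0.26 in control mice and -1.17, -2.19, -1.29 and -0.53 in MS mice. In *Dcn* and *Lum* the lowest mouse was MS 7.1, which was near the middle for *Ogn* and *Fmod*, and the highest was control 8.5. The r between *Dcn* and *Lum* was 0.976, while their r with the mean of the other members was 0.643 and 0.744, and 0.942 and 0.969 without MS 7.1. The log2 fold change was -0.33 (95% confidence interval -1.18 to 0.52) for *Dcn* and -0.46 (-1.31 to 0.39) for *Lum*, and for *Dcn* it was 0.05 in row 1 and -0.71 in row 2. For *Lum* it was -0.18 in row 1 and -0.74 in row 2. Without MS 7.1 that of *Dcn* was 0.00 and that of *Lum* -0.16, and without MS 7.6 that of *Lum* was -0.72. *Bgn* (biglycan), the fifth of this group, ranged from -3.22 in control 8.2 to -2.35 in control 8.5.

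**Figure D3:**
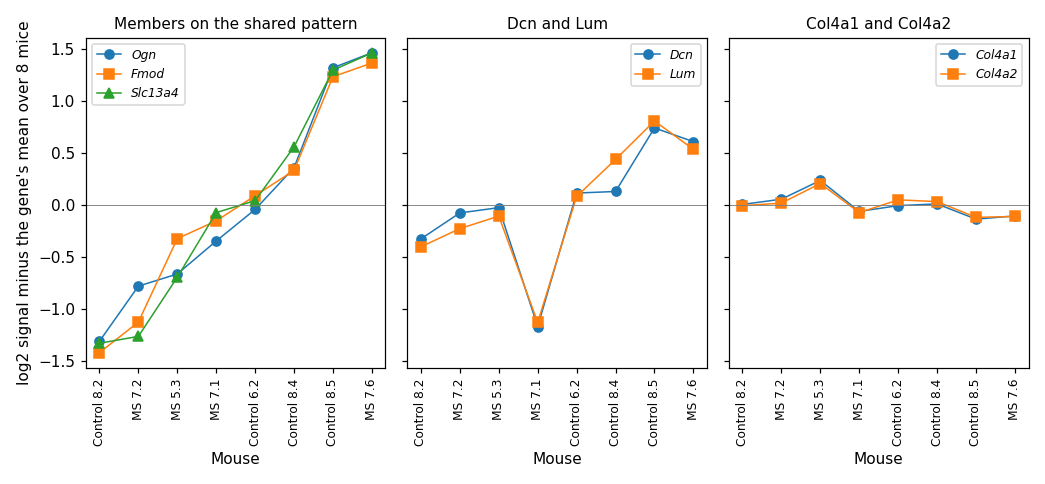
The log2 signal minus the mean of the gene over the 8 mice (y axis) is drawn for 7 genes in 3 panels that share the scale, with the mice (x axis) in the order of the mean of the 35 genes. *Ogn*, *Fmod* and *Slc13a4* climb from control 8.2 to MS 7.6, *Dcn* and *Lum* dip in MS 7.1, and *Col4a1* and *Col4a2* stay within a range of 0.37 and 0.32.

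Of the fibril-forming collagens, *Col1a1*, *Col1a2* and *Col3a1* followed the shared pattern (r 0.926, 0.994 and 0.939 with the other members). *Col1a1*, which encodes the alpha 1 chain of type I collagen, had values of -0.32, -1.22, -0.34 and -0.29 in control mice and -0.63, -0.92, -0.99 and 0.06 in MS mice. *Col1a2*, the alpha 2 chain of the same collagen, had values of 2.26, 1.48, 2.35 and 2.78 in control mice and 1.78, 1.94, 1.58 and 2.86 in MS mice. *Col3a1*, the chain of type III collagen, had values of -2.01, -2.65, -1.65 and -1.19 in control mice and -2.12, -2.62, -2.58 and -0.67 in MS mice. Control 8.2 was lowest and MS 7.6 highest in all 3, and the groups overlapped. The r was 0.930 between *Col1a1* and *Col1a2* and 0.939 between *Col1a2* and *Col3a1*. The log2 fold changes were -0.07, -0.18 and -0.13, with standard errors of 0.29, 0.34 and 0.48. *Col5a1*, a chain of the type V collagen found inside the fibrils, ranged only from -2.70 in MS 7.1 to -1.95 in MS 7.6 and differed by -0.05 on the log2 scale (standard error 0.15). Its r was 0.701 with the other members, 0.895 with *Col3a1*, 0.893 with *Dcn* and 0.875 with *Lum*.

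The basement membrane collagens did not follow the shared pattern. *Col4a1* and *Col4a2* encode the chains of the type IV collagen that underlies endothelial cells, pericytes and the glia limitans, and are made by cells of the vessel wall as well as by fibroblasts. *Col4a1* had values of 0.62, 0.63, 0.64 and 0.49 in control mice and 0.86, 0.56, 0.68 and 0.52 in MS mice. *Col4a2* had values of 1.61, 1.55, 1.59 and 1.44 in control mice and 1.76, 1.49, 1.58 and 1.45 in MS mice. Both were lowest in control 8.5 and highest in MS 5.3, and their r with each other was 0.983, whereas with the mean of the other members it was below 0. The highest value was 1.29 times the lowest for *Col4a1* and 1.25 times for *Col4a2*, which were the narrowest ranges among the 35 genes. The log2 fold change was 0.06 (95% confidence interval -0.13 to 0.26) for *Col4a1* and 0.02 (-0.17 to 0.21) for *Col4a2*.

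The genes of the type IV chains are neighbors on chromosome 8 and are read in opposite directions from a shared region. Their promoter windows overlap, and are shown because these genes kept nearly the same order of mice, with the same 3 motifs in capitals (RefSeq, GRCm38.p6, 5′ to 3′ on the strand of each gene). The window of *Col4a1* held CCAAT and GGGCGG 1 time each, and that of *Col4a2* held them 1 and 3 times, counted on both strands.
Col4a1 (chr8:11312777-11313076, minus strand): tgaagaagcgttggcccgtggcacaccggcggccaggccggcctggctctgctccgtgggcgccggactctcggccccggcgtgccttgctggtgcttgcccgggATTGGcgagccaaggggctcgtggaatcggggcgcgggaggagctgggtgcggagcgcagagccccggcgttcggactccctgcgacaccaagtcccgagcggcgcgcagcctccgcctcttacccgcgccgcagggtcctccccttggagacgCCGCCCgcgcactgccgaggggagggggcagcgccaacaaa
Col4a2 (chr8:11312555-11312854, plus strand): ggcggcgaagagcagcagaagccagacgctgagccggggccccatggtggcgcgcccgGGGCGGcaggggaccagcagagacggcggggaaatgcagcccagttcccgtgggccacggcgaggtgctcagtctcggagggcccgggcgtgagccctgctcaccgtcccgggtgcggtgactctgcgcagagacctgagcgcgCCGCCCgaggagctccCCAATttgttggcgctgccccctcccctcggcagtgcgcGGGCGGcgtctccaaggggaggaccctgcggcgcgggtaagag

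The collagens of beaded filaments and of the type VIII network were mixed. *Col6a1*, a chain of the type VI collagen that surrounds cells, had values of 0.74, 0.32, 0.95 and 1.02 in control mice and 0.79, 0.45, 0.48 and 1.1 in MS mice. It correlated with *Col6a2*, its neighbor on chromosome 10 (r 0.889), and both followed the mean of the other members (r 0.923 and 0.976). *Col6a3*, the chain of the same collagen on chromosome 1, had values of 0.71, 0.37, 0.49 and 0.97 in control mice and 0.85, 0.48, 0.57 and 0.55 in MS mice. In *Col6a3* MS 7.6 was thus below MS 5.3. *Col8a2*, which encodes a chain of the network collagen of the cornea and of vessels, ranged from -1.90 in MS 5.3 to -1.22 in MS 7.6 (r 0.891 with the other members), while its partner *Col8a1* ranged from -3.82 in MS 5.3 to -3.42 in control 8.5. The r between the chains of type VIII was 0.038. *Col8a1* was dim, and the second probe of *Col8a2*, above background on 4 arrays, had a log2 fold change of 0.17 where the brightest had -0.10.

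Further collagens that are not among the 35 genes were read from a list of 33, of which 28 were tested. Of these, 0 passed the adjusted p in either direction, 15 were below 0 and the median log2 fold change was -0.01. Their mean level stayed between -0.09 and 0.09 and did not follow that of the 35 genes (r -0.434 over the 8 mice, 0.021 without the 2 farthest). *Col11a1*, a fibrillar collagen of cartilage, differed by 0.28 (standard error 0.19) and *Col14a1*, a collagen on the surface of fibrils, -0.29 (standard error 0.13). With normexp the value of *Col14a1* was -0.023, and in the authors' table -0.13. Of 25 enzymes and chaperones that modify, fold, cut or cross-link collagen, 23 were tested, 0 passed, 10 were below 0 and the median was 0.01. Their mean level ranged from -0.11 to 0.13 and did follow the 35 genes (r 0.871, 0.906 without the 2 farthest), although only 4 of them had an r above 0.8. One was *Pcolce*, which speeds the cutting of procollagen and had an r of 0.995. *P3h2*, a prolyl hydroxylase, differed on the log2 scale by -0.19 (standard error 0.07), and *Adamts3*, a procollagen protease that was dim in some mice, 0.97 (standard error 0.57). With normexp these were 0.010 and 0.48, in the authors' table -0.093 and 0.43, and without MS 7.1 *Adamts3* had 0.33.

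Proteins of elastic fibers and other proteins bound to the matrix held both kinds of pattern. *Mgp*, an inhibitor of calcification, had values of 2.77, 1.56, 3.47 and 3.30 in control mice and 2.01, 2.49, 2.27 and 3.70 in MS mice. *Fbln1* (fibulin 1) ranged from -1.61 in control 8.2 to 0.17 in MS 7.6, and its 3 probes had log2 fold changes of -0.21, -0.13 and -0.19. *Aebp1*, which binds fibrillar collagen, ranged from 2.73 in MS 7.2 to 4.15 in MS 7.6. All 3 followed the mean of the other members (r 0.936, 0.993 and 0.975). *Fbln5* (fibulin 5), which is needed to assemble elastic fibers and is also made by vessel walls, had values of 0.60, 0.55, 0.70 and 0.70 in control mice and 0.17, 0.42, 0.38 and 0.30 in MS mice. Here each MS mouse was below each control mouse. The log2 fold change of *Fbln5* had a 95% confidence interval of -0.48 to -0.15 and was -0.34 within row 1 and -0.29 within row 2 (limma, adjusted p = 0.989).

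The groups did not overlap in 3 of the 35 genes (8.57%), against 1.76% of all genes tested (0.882% with MS mice lower and 0.882% with MS mice higher). Besides *Fbln5* there was *Ggt5*, an enzyme that cleaves glutathione and leukotriene conjugates and that is known from perivascular fibroblasts. It had values of -3.46, -3.49, -3.52 and -3.34 in control mice and -3.76, -3.86, -4.10 and -3.74 in MS mice. The log2 fold change of *Ggt5* was -0.43 in row 1 and -0.40 in row 2, with a 95% confidence interval of -0.62 to -0.21 (limma, adjusted p = 0.989). Its other tested probe, with values of -3.57, -3.88, -3.67 and -3.75 in control mice and -3.61, -4.00, -3.97 and -3.70 in MS mice, overlapped between the groups and had a log2 fold change of -0.11. *Lrrc15*, a membrane protein known from activated fibroblasts, had values of -5.08, -4.92, -4.76 and -5.09 in control mice and -4.37, -3.80, -4.46 and -4.43 in MS mice. Each MS mouse was above each control mouse, by 0.42 on average in row 1 and 0.97 in row 2, with a 95% confidence interval of 0.34 to 1.05 (limma, adjusted p = 0.989). *Ggt5* and *Lrrc15* were dim, and the size of their change differed between settings: with normexp and an offset of 50 it was -0.16 and 0.30, and in the authors' table -0.20 and 0.32, while *Fbln5* had -0.30 and -0.28. The cause was not tested. None of the 3 passed the test in any setting run.

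**Figure D4:**
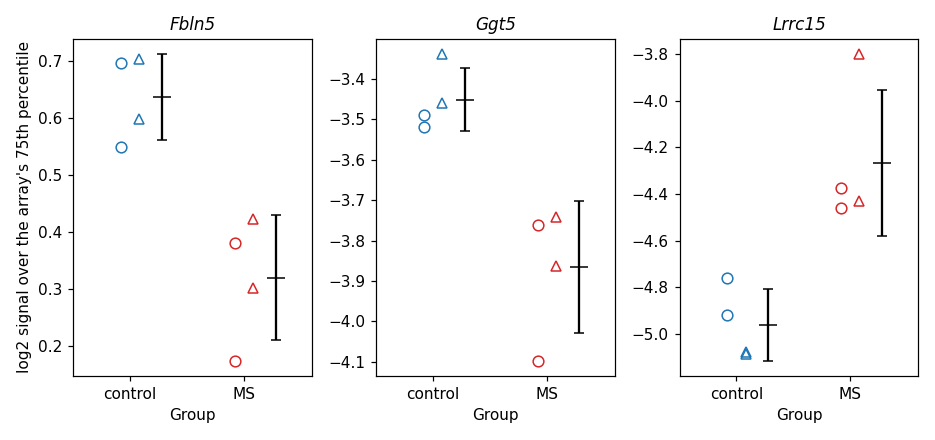
The log2 signal over the 75th percentile of the array (y axis, a separate scale per panel) is shown for *Fbln5*, *Ggt5* and *Lrrc15* in the control and MS mice, with circles for row 1 of the slide, triangles for row 2, and the mean ± SD (n = 4) in black. Control and MS mice do not overlap in these panels, with control values of 0.55 to 0.70 and MS values of 0.17 to 0.42 for *Fbln5*.

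Genes of growth factor, retinoic acid and prostaglandin signaling followed the shared pattern. *Aldh1a2*, the enzyme by which meninges make retinoic acid, had values of 0.89, -0.31, 1.19 and 1.68 in control mice and 0.38, 1.03, -0.11 and 1.75 in MS mice. *Ptgds*, which makes prostaglandin D2 in the meninges, the choroid plexus and oligodendrocytes, had values of 7.98, 7.17, 8.10 and 8.27 in control mice and 7.52, 7.69, 7.21 and 8.92 in MS mice. *Igf2*, a growth factor released into the cerebrospinal fluid, ranged from -4.04 in control 8.2 to -2.61 in control 8.5. Their r with the other members was 0.964, 0.966 and 0.904, and their log2 fold changes were -0.10, -0.05 and -0.03, with standard errors of 0.50, 0.39 and 0.34.

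The forkhead transcription factors, of which *Foxc1* directs the formation of the meninges, did so as well. *Foxc2* had values of -1.36, -3.08, -1.16 and -0.79 in control mice and -2.22, -1.54, -2.34 and -0.76 in MS mice, a 5.0-fold range. *Foxc1*, on another chromosome, had a 2.14-fold range with almost the same order of mice (r 0.957 with *Foxc2*). *Foxd1* ranged from -2.94 in MS 7.2 to -1.83 in MS 7.6. Their r with the other members was 0.947 for *Foxc2*, 0.973 for *Foxc1* and 0.961 for *Foxd1*, and the log2 fold changes were -0.12, -0.06 and -0.18.

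Among the remaining secreted, surface and stress-response proteins, *Nupr1*, a regulator of the stress response of cells, had values of 0.74, -0.01, 1.25 and 1.5 in control mice and 0.62, 0.96, 0.33 and 1.96 in MS mice. Although its log2 fold change was above 0 (0.10, standard error 0.42), it followed the shared pattern with an r of 0.990, and 0.997 with *Gjb2*. *Islr*, a secreted protein of stromal cells, ranged from -0.03 in control 8.2 to 1.39 in control 8.5 (r 0.911). *Serpinf1*, which inhibits vessel growth, ranged from 0.93 in MS 7.2 to 1.75 in control 8.4 (r 0.590), and its probes had log2 fold changes of -0.09 and -0.17.

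The mean levels of further markers of fibroblasts and of the markers of macrophages moved with the 35 genes as well. The 24 further markers of meningeal and perivascular fibroblasts had a mean level of -0.37 to 0.41 in control and -0.34 to 0.41 in MS mice, in the same order of mice as the 35 genes (r 0.984, rho 1 over the 8 mice, group means kept). Of these, 14 had an r above 0.8, among them *Fn1* (fibronectin, 0.983) and *Bmp6* (a bone morphogenetic protein, 0.992). The lowest r were those of *Cdh11* (-0.617), *Postn* (-0.230), *Zic1* (0.090) and *Pdgfra* (0.300), which did not follow the 35 genes. Of the 24 markers, 20 had a log2 fold change below 0, the median was -0.13, and 0 passed in either direction. *Spp1* (osteopontin) differed on the log2 scale by -0.57 (standard error 0.23) and *Postn* (periostin) 0.16 (standard error 0.09). The value of *Spp1* was -0.17 with normexp and -0.32 in the authors' table. The 11 macrophage markers tested had a mean level of -0.33 to 0.30 in control and -0.24 to 0.44 in MS mice (r 0.979). Known from the macrophages of the meninges and perivascular spaces are *Pf4* (r 0.992 with the 35 genes), *Mrc1* (0.957), *Cbr2* (0.935), *Lyve1* (0.928) and *Ms4a7* (0.784). For the other markers of the list, most of which microglia also express, the r was 0.904 for *Csf1r*, 0.772 for *Tmem119* and 0.765 for *C1qa*. It was 0.519 for *P2ry12*, 0.251 for *Aif1* and -0.246 for *Cx3cr1*. *P2ry12* and *Tmem119*, also of microglia, had log2 fold changes of 0.07 (standard error 0.07) and -0.11 (standard error 0.07).

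The mean levels of markers of the vessel wall and of the brain itself moved less. Those of the blood and of the anterior pituitary ranged more widely than that of the further fibroblast markers. The mean level of 12 endothelial markers followed that of the 35 genes (r 0.856, 0.828 without the 2 farthest) but only from -0.07 to 0.07, and that of 12 markers of pericytes and smooth muscle ranged from -0.18 to 0.15 (r 0.735, 0.399 without the 2 farthest). For 12 markers of ependyma and tanycytes the r was 0.782, and 0.385 without the 2 farthest. The choroid plexus, which secretes the cerebrospinal fluid, ranged from -0.37 in MS 7.1 to 0.23 in control 6.2 over 12 markers, with an r of 0.163 (-0.259 without the 2 farthest). Of single genes, 2 of the 12 in each of these lists had an r above 0.8 with the 35 genes. The r was 0.387 for 10 astrocyte markers (0.362 without the 2 farthest), -0.541 for 10 of oligodendrocytes (0.315) and -0.368 for 10 of neurons (-0.335). It was -0.212 for 8 blood genes (0.067), whose mean level ranged from -0.52 to 0.63. The sign of r thus turned for the choroid plexus, the oligodendrocytes and the blood. The r was 0.226 (0.272) for 7 genes of the anterior pituitary, which lies below the HT and stood at 2.50 in control 6.2 against -1.01 to 0.43 in the other mice. In each of these lists 0 genes passed the adjusted p in either direction. The part of each cell type in the level of the 35 genes was not tested.

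**Figure D5:**
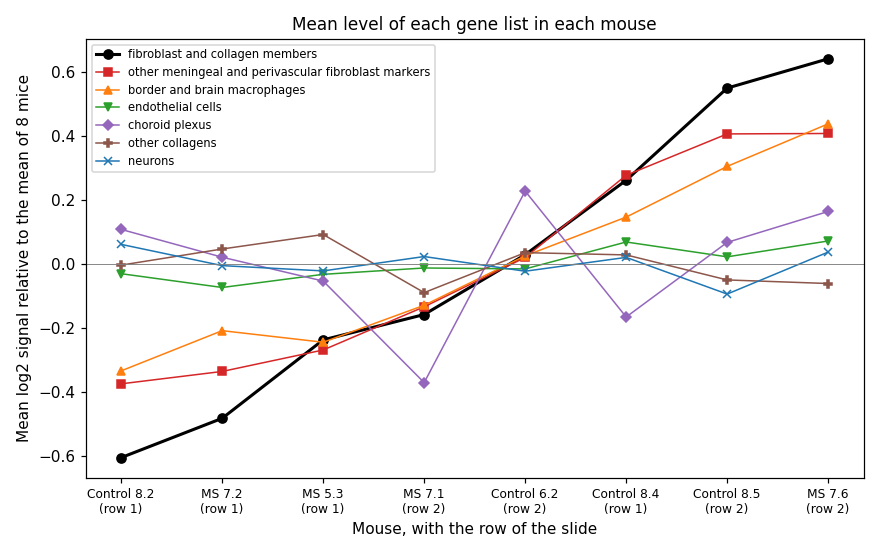
The mean log2 signal of each gene list relative to its mean over the 8 mice (y axis) is drawn for the 35 genes in black and for the other lists, with mice (x axis, with the row of the slide) ordered by the level of the 35 genes. The further fibroblast markers and the macrophage markers climb with the 35 genes, from -0.37 to 0.41 and from -0.33 to 0.44. Neurons, endothelial cells and other collagens stay between -0.09 and 0.09, while the choroid plexus ranges from -0.37 to 0.23 in another order of mice.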

How the data were processed

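Gene expression in the HT was measured with 1 Agilent array per mouse in 4 control and 4 MS mice, grouped from the sample labels. The deposited scanner files hold intensities that the authors read with Agilent Feature Extraction 10.10.1.1, with the background subtracted and gradients within the array removed. Normalized log2 values deposited by the authors served as an alternative. The submitters' processing notes name limma for them, and how they were normalized is not given here, since no source used states it. The headers give mm9 for the probe positions and a design number other than that in the study's methods. No genome of that build was used, so probes are not placed in exons.

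Analysis used limma 3.58.1 in R 4.3.3. After removal of control and outlier spots, spots of a probe were averaged on the log2 scale (55681 probes from 59305 spots) and each array was scaled to its 75th percentile. Those probes well above background on at least 4 arrays were tested with lmFit and eBayes, two-sided, adjusted by Benjamini-Hochberg over the 37322 probes tested at 0.05. Code was tested on simulated data. Probes were named by RefSeq accession (27235), symbol (2269) or older symbol (206), 135 by the array's own annotation only, and 25836 had no name, and the brightest tested probe stood for a gene. Promoters were those of RefSeq on GRCm38.p6.

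The 35 genes, the gene lists and the tests were chosen with earlier results of these data known. Named genes were all 35, from each list the genes of smallest p among those higher and those lower, and the 10 other genes with the highest and the 5 with the lowest correlation with the mean of the 35 genes. *Fn1*, *Bmp6*, *Cdh11*, *Zic1*, *Pdgfra*, the hypothalamic genes and the macrophage genes were named after their values were seen. Alternatives were quantile normalization, normexp (offset 50), no filter or a stricter one on dim probes, the values of the authors, the mean over the probes of a gene, slide row as a block or alone, a random block for the first part of the mouse number, a threshold of 0.10 and the omission of each mouse. Values without scaling between arrays were added after seeing the data.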

Additional observations from a re-analysis of the deposited data

Results flagged for a closer look

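In 72 groups of 4 mice (the 35 genes and their mean level in control and in MS mice), 3 had a mouse whose gap to the nearest other mouse took most of the range of the group, by Dixon's criterion, which chance gives in about 1 of 20 groups. For *Col1a1* in control mice this was control 8.2, whose gap made up 0.947 of the range. For *Col4a1* it was control 8.5 among the control mice (0.887), and for *Lrrc15* it was MS 7.1 among the MS mice (0.868). Without MS 7.1 the log2 fold change of *Lrrc15* was 0.54.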

How the results depend on the processing

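In every setting run, 0 of the tested probes of the 35 genes passed the adjusted p, also at 0.10. With a random block for the first part of the mouse number, at an estimated correlation of -0.193, 1 probe among all those tested passed and the smallest adjusted p among the 35 genes was 0.327. The control and MS mice share no first part of the number, so each block lay within 1 group and no paired analysis was possible. A negative correlation within such blocks lowers the standard error of the group difference. The number of arrays limits the intervals. The sign turned or the log2 fold change moved by over 1.5 times in 9 of the 35 genes with normexp and an offset of 50, in 15 in the authors' table and in 32 when single mice were left out, and in 7 and 11 of 25 other named genes with normexp and in the authors' table.

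In settings with all mice, the median log2 fold change stayed between -0.12 and -0.08, and 29 to 31 genes were below 0, except without scaling, where the median was -0.21 (all genes -0.10), 34 genes were below 0 and the median r between the genes was 0.444. Row 1 alone gave a median of -0.20 with 28 genes below 0, and row 2 alone -0.05 with 23. The sign turned with normexp for *Col5a1* (0.0031), *Col8a1* (0.028) and *P3h2* (0.010), in the authors' table for *Col5a1* (0.025) and *Igf2* (0.034), and with the mean over probes for *Col8a2* (0.035) and *Ermn* (0.0012). Of the 35 genes, 31 kept their sign in all settings with all 8 mice other than the unscaled one, and 7 in all 16 settings that also include leaving out each mouse.

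Leaving out each mouse in turn moved the number of genes below 0 from 12 (without control 8.5) to 32, the median log2 fold change from -0.40 to 0.04 and the median r from 0.676 to 0.885 (without MS 7.1). It also turned the sign of these genes, given with their lowest and highest log2 fold change: *Col1a1* -0.30 to 0.048, *Col1a2* -0.45 to 0.0077, *Col3a1* -0.57 to 0.10, *Col5a1* -0.19 to 0.064, *Col4a1* -0.0056 to 0.11, *Col4a2* -0.044 to 0.061, *Col6a1* -0.20 to 0.037, *Col6a2* -0.22 to 0.10, *Col6a3* -0.11 to 0.088, *Dcn* -0.59 to 0.0042, *Ogn* -0.68 to 0.25, *Fmod* -0.61 to 0.27, *Bgn* -0.19 to 0.10, *Fbln1* -0.56 to 0.035, *Mgp* -0.56 to 0.073, *Aebp1* -0.44 to 0.050, *Slc13a4* -0.82 to 0.10, *Slc22a6* -0.83 to 0.12, *Gjb2* -0.33 to 0.14, *Igf2* -0.24 to 0.23, *Aldh1a2* -0.49 to 0.19, *Ptgds* -0.41 to 0.16, *Foxc1* -0.26 to 0.093, *Foxc2* -0.61 to 0.15, *Serpinf1* -0.25 to 0.061 and *Nupr1* -0.23 to 0.31. Outside the 35 genes it did so for *Mag* -0.048 to 0.21 and *Alas2* -0.28 to 0.020. The cause was not tested.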

Other observations

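Outside the 35 genes, the closest in pattern to their mean level over the 8 mice, after the mean of each group was subtracted, were *Emp3*, a membrane protein of epithelia and leukocytes, *Bst2*, an antiviral protein induced by interferon, *Serpind1*, an inhibitor of thrombin, *Pcolce*, *Nbl1*, an antagonist of bone morphogenetic proteins, *Wnt6*, a secreted ligand, *Wfikkn2*, *Gypc*, *Gstm2*, a glutathione transferase, and *Pf4* (r 0.992 to 0.996). The log2 signal of *Serpind1* ranged from -1.76 in control 8.2 to 0.72 in MS 7.6, and that of *Wnt6* from -2.92 to -0.23 in the same mice. Their log2 fold changes of MS over control were -0.24 (standard error 0.59) and -0.19 (standard error 0.64). *Bst2*, *Nbl1* and *Gypc* were above 0 (0.11, 0.01 and 0.03). At the other end, r was -0.994 for *Tsc1*, which restrains mTOR signaling, -0.983 for *Cep152*, -0.978 for *Zc3h12a*, -0.977 for *Cnot2* and -0.977 for *F9*. The range of *Tsc1* was narrow, from 2.40 in control 8.5 to 2.74 in MS 7.2. With normexp the r of *Zc3h12a* was 0.515, and with the mean over probes that of *Cnot2* was -0.71. Of the 16620 other genes, 276 (1.66%) had an r above 0.9 and 156 (0.939%) an r below -0.9.

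Among the markers of other cells, the following had the smallest p in either direction, and none passed the test (limma, adjusted p 0.989 to 0.991). In endothelial cells, the log2 fold change was -0.17 for *Emcn* and 0.19 for the lactate transporter *Slc16a1*. In pericytes and smooth muscle it was -0.29 for *Myh11*, the myosin of smooth muscle, and 0.09 for *Higd1b*. In the choroid plexus it was 0.17 for *Otx2* and -0.23 for *F5*, and in ependyma and tanycytes -0.23 for *Tmem212* and 0.12 for *Rax*, a transcription factor of tanycytes. The glutamate transporter *Slc1a2* of astrocytes had -0.09 and the water channel *Aqp4* 0.25. Myelin genes had 0.11 (*Mag*) and -0.12 (*Ermn*), and neurons -0.12 (*Gad2*) and 0.14 (*Slc17a6*). *Tshb*, a hormone of the anterior pituitary, had -2.19 (standard error 0.87), and in this list control 6.2 stood apart. Without control 6.2 the value of *Tshb* was -1.57. All 7 genes tested in this list were below 0, against 46.3% of all genes, with a median of -0.84. The blood genes *Hba-a2* and *Alas2* had 0.11 and -0.07. With normexp *Myh11* had -0.053, *F5* -0.060 and *Emcn* -0.090, and in the authors' table *Hba-a2* had 0.0088.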
